A study of Homo sapiens with 6 samples.

Results

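The genes described here are 44 genes of the Fanconi anaemia and homologous recombination repair pathways, out of 16551 genes with a count in the deposited table. They were chosen by name from knowledge of the pathway and not by a rule on their values, but with earlier results of these data known. Each name matched 1 gene. RNA was measured in HaCaT cells, an established line of immortalised human keratinocytes, in 3 libraries labelled si-YTHDF2 and 3 labelled NC. By the usual notation the si-YTHDF2 cells received a small interfering RNA against YTHDF2, a cytoplasmic protein that binds methylated adenosine in mRNA and recruits deadenylases, and NC is the negative control for it. The labels name no further agent, genotype or time, and they give neither the siRNA sequence nor the origin of the replicates. Whether the replicates are separate cultures is therefore unknown, and the p-values below describe library-to-library spread that may be technical. The series title places the comparison in psoriasis, with proliferation, inflammation and Wnt signaling as its subjects.

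An interstrand DNA crosslink stops a replication fork. FANCM and the Fanconi core complex recognise the stalled fork, and the ligase FANCL with its ubiquitin-conjugating enzyme UBE2T modifies the FANCD2-FANCI clamp, which USP1 later strips of ubiquitin. Nucleases held by SLX4 then unhook the crosslink, and the resulting break is repaired by homologous recombination: ends are resected, BRCA1, PALB2 and BRCA2 and the complexes built from RAD51B, RAD51C, RAD51D, XRCC2 and XRCC3 promote strand exchange, and the joint molecules are taken apart by the BLM complex. ATM and ATR and their effector kinases signal the damage. Most of these genes are expressed mainly in dividing cells, and germline loss of several of them causes Fanconi anaemia or hereditary breast and ovarian cancer.

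Totals per library ran from 19803707 to 21481302 counts in si-YTHDF2 and from 20312740 to 22698069 counts in NC. YTHDF2 itself stood at 43.0, 48.4 and 43.5 CPM (counts scaled to library size and RNA composition) in the si-YTHDF2 libraries, against 74.6, 77.5 and 83.8 CPM in the NC libraries. Its mean was thus 57.1% of the NC mean, with a log2 fold change of -0.81 ± 0.07 (SE), and the groups did not overlap (two-sided exact permutation p = 0.1, the smallest that 3 libraries against 3 allow). si-YTHDF2 replicate 1 stood apart from the other two si-YTHDF2 libraries. Chi-square per gene was 12.1 and 13.5 between it and them and 3.67 between them, and it was the highest si-YTHDF2 library for 29 of the 44 genes, against 4870 of 12249 genes tested. Where leaving it out changed a call, or moved a called log2 fold change by over 1.5 times, the value without it is given below. Of the keratinocyte markers, KRT15 averaged 264 CPM in si-YTHDF2 and 865 CPM in NC, KRT5 2384 and 2029 CPM, and TP63 308 and 376 CPM. The 3 markers of smallest p were KRT15, which fell by 1.71 on the log2 scale, IVL, which fell by 1.39, and COL17A1, which rose by 0.64. KRT14, a defining keratin of basal keratinocytes, had at most 48 counts in any si-YTHDF2 library. In NC replicates 1, 2 and 3 it had 12, 33 and 98 counts. The NC libraries also differed from each other in KRT1, at 5, 126 and 888 counts, and in KRT10, at 819, 975 and 1999 counts. In si-YTHDF2 these stood at 339, 286 and 244 counts for KRT1 and at 1329, 1342 and 1197 counts for KRT10. In bulk RNA, fewer cells of a type and less RNA per cell cannot be told apart.

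The balance of the 44 genes lay towards higher levels in si-YTHDF2, by small amounts. In edgeR's quasi-likelihood test, with Benjamini-Hochberg adjustment over all 12264 genes tested and a threshold of 0.05 on the adjusted p, 19 genes rose (43.2%, against a background of 26.1% of all genes tested) and 5 fell (11.4%, against 25.2%). The other 20 did not pass. Either way 54.5% of the 44 were called, close to the background of 51.2%. All 44 passed the filter on low counts. Their median log2 fold change was 0.18, against 0.01 over all genes tested, and single genes ran from -0.58 (FANCF) to 0.81 (XRCC3). The changes were modest: 0 of the 24 called genes reached 2-fold, against 14.4% of all called genes, and 5 of them (20.8%) reached 1.5-fold, against 32.9%. Those 5 were XRCC3, RAD51D, XRCC2, BRCA2 and SLX4, and each of them rose. With library totals in place of composition factors, 22 of the 44 rose and 3 fell, while over all genes 3860 rose and 2433 fell, so that 61.3% of all calls were rises instead of 50.9%. Without NC replicate 3 the 44 genes gave 15 rises and 3 falls, and without si-YTHDF2 replicate 3 they gave 18 rises and 3 falls. Without si-YTHDF2 replicate 1 there were 20 rises and 5 falls.

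**Figure D1:**
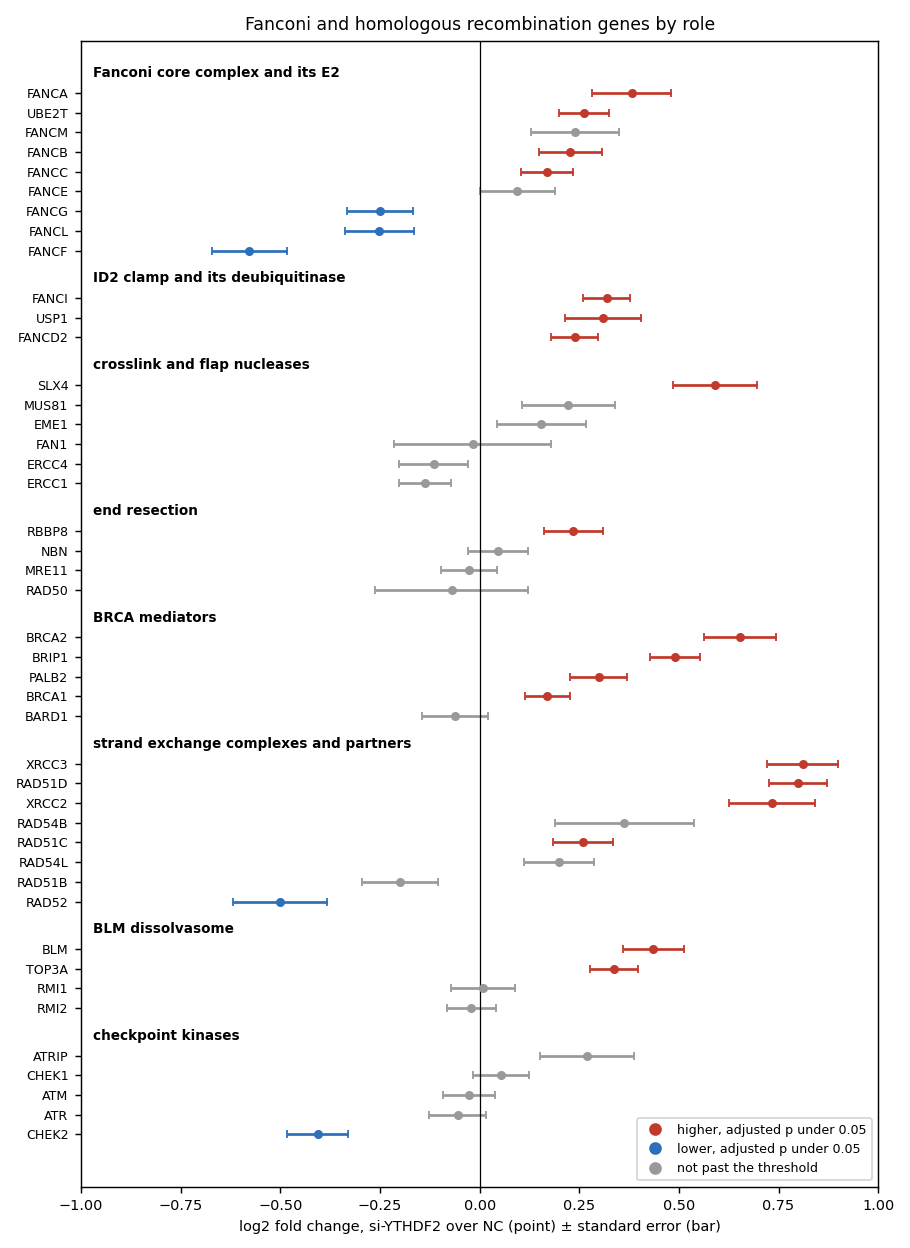
Log2 fold change of each of the 44 genes, si-YTHDF2 over NC (horizontal axis; point, with the SE as a bar), grouped by role, red for the 19 genes that rose, blue for the 5 that fell and grey for the 20 that did not pass. XRCC3, RAD51D and XRCC2 lie farthest to the right, and FANCF, RAD52 and CHEK2 farthest to the left.

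**Figure D2:**
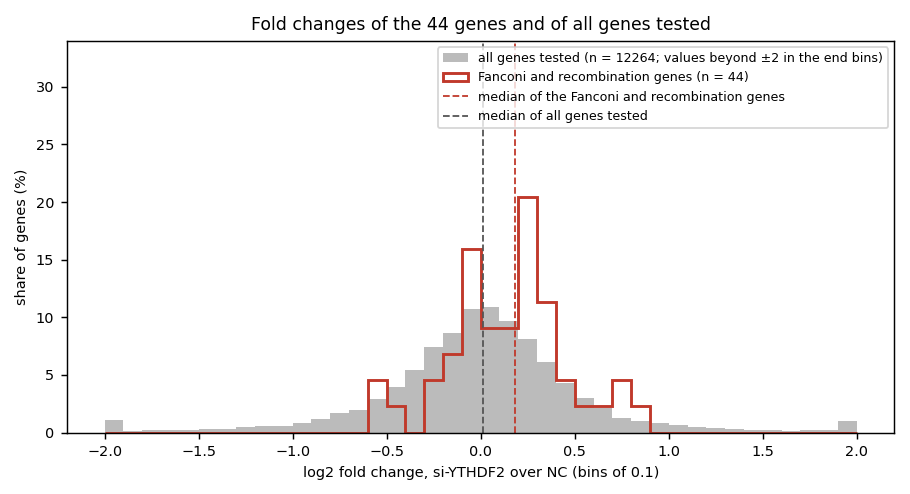
Share of genes (vertical axis, %) in bins of log2 fold change, si-YTHDF2 over NC (horizontal axis), for the 44 genes (red outline) and for all 12264 genes tested (grey). The median of the 44 genes, at 0.18, lies to the right of the median of all genes, at 0.01, and no member lies beyond 1 in either direction.

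Without regard to a model, 20 of the 44 genes had every si-YTHDF2 library above every NC library (background 29.9%) and 6 had every si-YTHDF2 library below (background 28.7%). In the other 18 the groups overlapped. The median of the 44 genes, as log2 of the CPM over the NC mean, was 0.22, 0.14 and 0.14 in the si-YTHDF2 libraries, so each of them lay above NC, replicate 1 the most. Of the 38 genes with at least 300 counts in every library, 19 rose and 4 fell. Of the 6 genes with fewer counts (a group that includes RAD52, FAN1 and RAD50), 0 rose and 1 fell. Over all genes tested, at any count level, 26.1% rose and 25.2% fell. The shares over all genes at like counts were not computed. A call is easier to reach with more counts, so the contrast between these groups is not a result about the genes.

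Proliferation markers moved with these genes. Of 30 S phase and mitosis markers, 21 rose (70.0%) and 1 fell (3.33%), with a median log2 fold change of 0.37. Over all genes tested 26.1% rose, 25.2% fell and the median was 0.01. These values are the background for each marker list in this paragraph. The summed level of the S phase and mitosis markers was 5989 to 6189 CPM in si-YTHDF2 and 4952 to 5034 CPM in NC. The summed level of the 44 repair genes was 1961 to 2132 CPM in si-YTHDF2 and 1799 to 1812 CPM in NC. Erythroid RNA differed too: 6 of 14 erythroid markers could be tested and all 6 of those rose, with a sum of 1543 to 1774 CPM in si-YTHDF2 and 55.7 to 58.2 CPM in NC, most of it HBB. The erythroid genes GYPB, EPB42, AHSP and KLF1 were at 0 counts in every NC library, and KLF1 had at most 2 counts in any si-YTHDF2 library. Of 7 leukocyte and platelet markers tested 6 rose and 1 fell, and the full list of 19 summed to 25.8 to 27.3 CPM in si-YTHDF2 and 4.99 to 6.20 CPM in NC. The keratinocyte list, with 2 of 11 tested markers that rose and 5 that fell, summed to 3956 to 4324 CPM in si-YTHDF2 and 4411 to 4649 CPM in NC. The part of any of these in the repair genes' values was not tested.

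The 3 largest rises were among 5 genes whose products promote strand exchange on resected DNA, as the complex RAD51B-RAD51C-RAD51D-XRCC2 and as the pair RAD51C-XRCC3. Of these 5 genes 4 rose and 0 fell, with a median log2 fold change of 0.73. For these and for each role group below, the background is 26.1% of all genes tested that rose and 25.2% that fell. The role groups hold 3 to 9 genes each, and their difference from the background was not tested. Together with RAD52, RAD54B and RAD54L, the full group of 8 strand exchange genes held 4 that rose and 1 that fell, with a median of 0.31. The promoters of the 3 with the largest rises of all 44 genes, and of the 2 genes with the largest falls, are shown first, because they let the start regions of genes that moved in opposite directions be read side by side; they were picked after the values were seen. Each is a RefSeq promoter window in GRCh38.p14, from 250 bases before to 50 bases after the RefSeq start, printed 5′ to 3′ on the gene's strand, which is the minus strand for all 5. Capitals mark the E2F motif (TTCCCGC or TTGGCGC on either strand, so that GCGGGAA and GCGCCAA are also matches) and the CCAAT motif (CCAAT or, on the other strand, ATTGG).
XRCC3 (chr14:103715402-103715701): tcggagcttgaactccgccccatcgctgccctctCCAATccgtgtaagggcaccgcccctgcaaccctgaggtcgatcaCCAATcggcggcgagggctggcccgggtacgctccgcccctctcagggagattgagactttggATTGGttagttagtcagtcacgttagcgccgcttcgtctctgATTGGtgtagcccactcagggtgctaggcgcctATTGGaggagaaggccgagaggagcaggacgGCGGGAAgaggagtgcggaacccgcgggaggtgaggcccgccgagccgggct
RAD51D (chr17:35119709-35120008): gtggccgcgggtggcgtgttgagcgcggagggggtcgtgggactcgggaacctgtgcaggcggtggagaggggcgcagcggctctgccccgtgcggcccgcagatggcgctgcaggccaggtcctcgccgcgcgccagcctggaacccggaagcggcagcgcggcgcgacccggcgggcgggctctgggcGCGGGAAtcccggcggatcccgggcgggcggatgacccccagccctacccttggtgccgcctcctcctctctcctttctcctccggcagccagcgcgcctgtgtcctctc
XRCC2 (chr7:152676092-152676391): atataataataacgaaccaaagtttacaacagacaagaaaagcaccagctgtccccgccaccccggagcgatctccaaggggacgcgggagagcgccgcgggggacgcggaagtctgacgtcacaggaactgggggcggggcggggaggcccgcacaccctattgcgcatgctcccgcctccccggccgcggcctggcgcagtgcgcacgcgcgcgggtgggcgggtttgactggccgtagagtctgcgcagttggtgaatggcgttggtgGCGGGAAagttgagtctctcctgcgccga
FANCF (chr11:22625774-22626073): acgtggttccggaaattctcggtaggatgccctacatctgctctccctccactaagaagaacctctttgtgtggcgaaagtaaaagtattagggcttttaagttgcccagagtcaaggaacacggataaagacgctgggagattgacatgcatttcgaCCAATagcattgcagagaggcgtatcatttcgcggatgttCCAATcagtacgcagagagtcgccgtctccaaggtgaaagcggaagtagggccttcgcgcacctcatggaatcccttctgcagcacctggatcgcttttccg
RAD52 (chr12:949645-949944): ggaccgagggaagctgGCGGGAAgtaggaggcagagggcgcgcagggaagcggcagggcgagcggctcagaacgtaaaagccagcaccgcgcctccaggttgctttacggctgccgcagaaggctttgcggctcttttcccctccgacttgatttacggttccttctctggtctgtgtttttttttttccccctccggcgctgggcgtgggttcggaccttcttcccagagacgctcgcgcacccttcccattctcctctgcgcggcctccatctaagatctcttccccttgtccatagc

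XRCC3, RAD51D and XRCC2 each hold 1 E2F match, with its first base at position -2, -60 and 22 from the start. RAD52, which fell, also holds 1, at position -234, and FANCF holds 0. CCAAT matches number 5 in XRCC3 and 2 in FANCF, and the other three windows hold 0. A promoter window was found for 40 of the 44 genes, and 17 of those hold an E2F match (42.5%), against 14.9% of the windows of all genes tested and 9.33% of all 27305 windows. Among genes that rose, 10 of 18 windows hold it (55.6%), among genes that fell 3 of 5 (60.0%), and among genes not called 4 of 17 (23.5%). In the S phase and mitosis markers it is in 15 of 25 windows (60.0%). CCAAT is in 42.5% of the members' windows and 36.7% of those of all genes tested. The CHR element (TTTGAA or its reverse complement TTCAAA) is in 4 of the 40 members' windows and 9.61% of those of all genes tested. The E2F form TTGGCGC and the CCAAT form ATTGG share the letters TTGG and can overlap in a window, and a match is a description of the sequence and not a binding site.

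RAD51D, which joins RAD51C to XRCC2, was measured at 51.3, 49.7 and 51.5 CPM in si-YTHDF2 and at 30.5, 26.7 and 30.4 CPM in NC. The 6 libraries formed 2 tight, separate groups, and the log2 fold change was 0.80 ± 0.07 (SE), a 1.74-fold rise (adjusted p = 9.02e-07). The gene (ENSG00000185379) lies on the minus strand of chromosome 17 from 35092208 to 35121522 in GRCh38. XRCC2, its partner at the end of the same complex, had 35.3, 25.6 and 30.2 CPM in si-YTHDF2 and 18.8, 17.9 and 18.0 CPM in NC. The si-YTHDF2 libraries were more widely spread here, with replicate 1 highest, but each lay above NC, and the 1.66-fold rise (log2 0.73 ± 0.11, SE) had an adjusted p of 7.16e-05. XRCC2 (ENSG00000196584) lies on the minus strand of chromosome 7 from 152644779 to 152676165.

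XRCC3, the partner of RAD51C in the other complex, had 40.3, 47.8 and 45.5 CPM in si-YTHDF2 and 25.5, 22.9 and 27.7 CPM in NC. Its replicate 1 was the lowest si-YTHDF2 library, and the log2 fold change was 0.81 ± 0.09 (SE), a 1.75-fold rise (adjusted p = 5.78e-06). XRCC3 (ENSG00000126215) lies on the minus strand of chromosome 14 from 103697609 to 103715504. Of its annotated exon bases 76.7% are also exon bases of genes on the opposite strand. These include KLC1, a kinesin light chain gene. KLC1 had 651, 688 and 636 counts in si-YTHDF2 and 442, 396 and 440 counts in NC, with a log2 fold change of 0.62 ± 0.08 (SE) and an adjusted p of 1.72e-05. Whether the counting used strand is not given in the sources used here, so the value of XRCC3 is uncertain: without strand, reads of both genes cannot be told apart. In RAD51D 9.45% of exon bases are shared with other genes, most of them (8.87% of exon bases) on the same strand, where a strand setting would not separate the reads. XRCC2 shares 0%.

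RAD51C, present in both complexes, had 29.7, 28.7 and 29.02 CPM in si-YTHDF2 and 25.5, 23.8 and 23.7 CPM in NC. The groups did not overlap, and the rise was small, 0.26 ± 0.08 (SE) on the log2 scale (adjusted p = 0.0109). RAD51B, the remaining gene of the complex, had 17.3, 14.9 and 17.2 CPM in si-YTHDF2 and 18.8, 18.0 and 19.8 CPM in NC. Each si-YTHDF2 library was below each NC library, but the log2 fold change of -0.20 ± 0.10 (SE) did not pass (adjusted p = 0.0972). The log2 ratio of RAD51B to RAD51C within a library was -0.83 ± 0.11 in si-YTHDF2 and -0.36 ± 0.09 in NC (SD, n = 3 each), without overlap between the groups.

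Of the other strand exchange genes, RAD52 fell. RAD52 binds single-stranded DNA and anneals complementary strands; in yeast it is required for most homologous recombination. It had 10.8, 9.18 and 10.6 CPM in si-YTHDF2 and 16.1, 13.0 and 14.2 CPM in NC, which gave a log2 fold change of -0.50 ± 0.12 (SE) and an adjusted p of 0.00312. RAD52 (ENSG00000002016) lies on the minus strand of chromosome 12 from 912077 to 990053. The translocases RAD54L and RAD54B, which remodel DNA during strand exchange, did not pass. RAD54L averaged 23.5 ± 1.22 CPM in si-YTHDF2 and 20.4 ± 1.68 CPM in NC (SD, n = 3 each; log2 fold change 0.20 ± 0.09 SE, adjusted p = 0.0760), and RAD54B averaged 6.59 ± 0.95 and 5.12 ± 0.71 CPM (0.36 ± 0.17, adjusted p = 0.0978). RAD54B shares 59.1% of its exon bases with genes on the same strand, among them FSBP, so its counts are uncertain. RAD54L shares 25.1% with genes on the opposite strand, among them LRRC41, which fell by 0.27 on the log2 scale. RAD54L passed without si-YTHDF2 replicate 1 (0.24, adjusted p = 0.0362), without NC replicate 1 (0.26, adjusted p = 0.0456) and with library totals (0.26, adjusted p = 0.0252), and RAD54B with the length and GC offset (0.43, adjusted p = 0.0332).

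**Figure D3:**
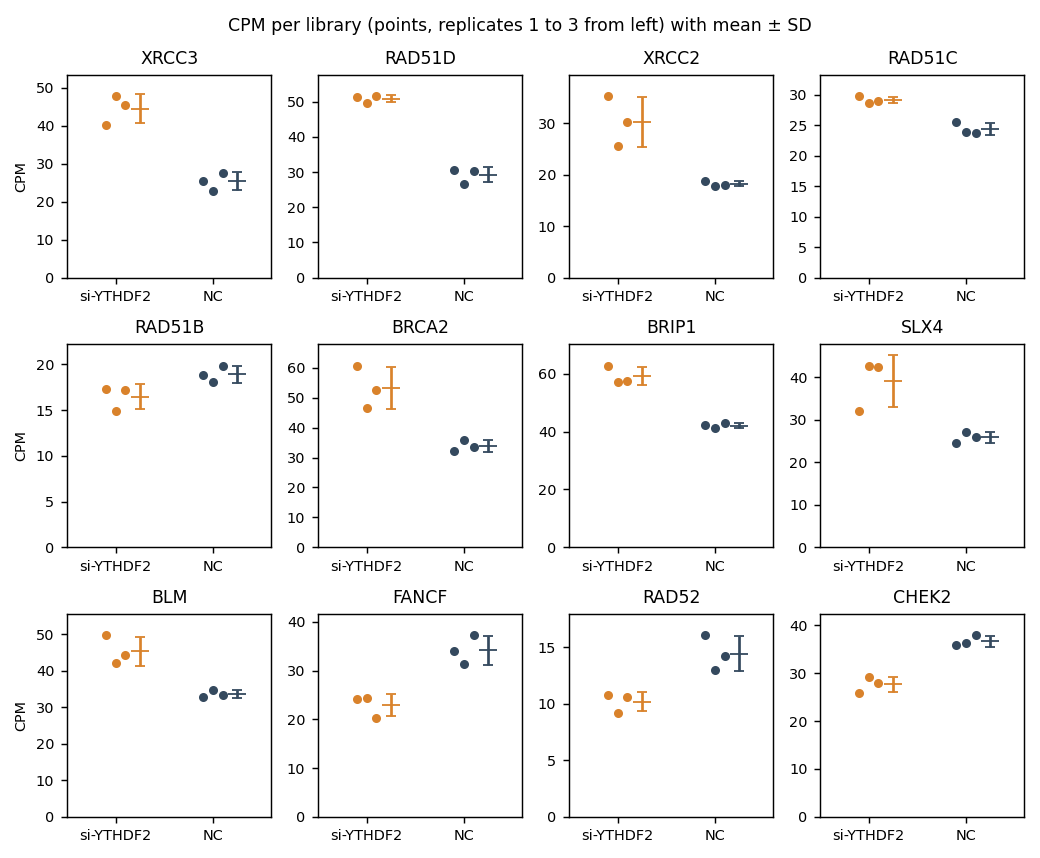
CPM of 12 of the genes in each library (points, replicates 1 to 3 from left to right; bars show the mean ± SD of 3 libraries), si-YTHDF2 left and NC right, with each vertical axis starting at 0. The 12 were selected by hand from the 44 genes. In all 12 the groups do not overlap, and RAD51B, FANCF, RAD52 and CHEK2 are lower in si-YTHDF2, though RAD51B did not pass the test. In 18 of the 44 genes the groups overlap, and of all genes tested 58.5% do not overlap.

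The BRCA mediators, which promote strand exchange at resected ends, also rose for the most part. Of 5 genes 4 rose (background 26.1%) and 0 fell (background 25.2%), with a median log2 fold change of 0.30. BRCA2, the central mediator of strand exchange, had 60.7, 46.7 and 52.5 CPM in si-YTHDF2 and 32.1, 36.0 and 33.7 CPM in NC. The lowest si-YTHDF2 library was still above the highest NC library, and the 1.57-fold rise (log2 0.65 ± 0.09, SE) had an adjusted p of 4.79e-05. BRCA2 (ENSG00000139618) is a plus-strand gene on chromosome 13, at 32315474 to 32400266. BRIP1, a helicase bound by BRCA1 and also known as FANCJ, had 62.8, 57.1 and 57.6 CPM in si-YTHDF2 and 42.3, 41.1 and 42.9 CPM in NC. Its groups were far apart relative to their spread, with a log2 fold change of 0.49 ± 0.06 (SE) and an adjusted p of 2.54e-05.

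PALB2, the bridge between BRCA1 and BRCA2, averaged 59.8 ± 5.26 CPM in si-YTHDF2 and 48.6 ± 2.22 CPM in NC (SD, n = 3 each) and rose by 0.30 ± 0.07 (SE) on the log2 scale (adjusted p = 0.00351). BRCA1, the ubiquitin ligase that favours resection, had 94.6, 86.0 and 88.8 CPM in si-YTHDF2 and 80.5, 80.0 and 78.9 CPM in NC. It rose by 0.17 ± 0.06 (SE; adjusted p = 0.0213), but the call was lost when any 1 of the 3 NC libraries was left out, with adjusted p of 0.0557, 0.0647 and 0.0775 without replicates 1, 2 and 3. BARD1, the partner that BRCA1 needs for its stability and ligase activity, did not pass, with 40.0, 34.5 and 33.1 CPM in si-YTHDF2 and 39.1, 36.8 and 36.5 CPM in NC. Its log2 fold change was -0.06, with a 95% interval from -0.24 to 0.12. The within-library log2 ratio of BRCA1 to BARD1 was 1.33 ± 0.09 in si-YTHDF2 and 1.09 ± 0.04 in NC, and that of BRCA2 to PALB2 was -0.17 ± 0.07 and -0.52 ± 0.06 (SD, n = 3 each); neither pair's groups overlapped.

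The Fanconi core complex, with UBE2T, split: of 9 genes 4 rose, 3 fell and 2 did not pass. UBE2T, the ubiquitin-conjugating enzyme that FANCL uses, had 84.6, 78.3 and 76.2 CPM in si-YTHDF2 and 64.3, 70.3 and 65.1 CPM in NC, a rise of 0.26 ± 0.06 (SE) on the log2 scale (adjusted p = 0.00308). FANCA, a scaffold of the complex, had 39.1, 45.9 and 43.1 CPM in si-YTHDF2 and 27.5, 34.4 and 36.4 CPM in NC, a rise of 0.38 ± 0.10 (SE; adjusted p = 0.00583). In both genes the groups were separate. For FANCA, 23.6% of exon bases are shared with genes on the opposite strand, among them ZNF276, which itself rose by 0.38. FANCB, part of the catalytic module with FANCL, rose by 0.23 ± 0.08 (SE; adjusted p = 0.0275), and FANCC, of the module that recruits the substrate, by 0.17 ± 0.07 (adjusted p = 0.0458). Neither of these calls was stable. FANCB lost it without si-YTHDF2 replicate 3 (0.0835), NC replicate 2 (0.0738) or NC replicate 3 (0.0965). FANCC lost it when any 1 of the 6 libraries was left out. Its adjusted p ran from 0.0504 without si-YTHDF2 replicate 1 (log2 fold change 0.17) to 0.191 without NC replicate 3.

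FANCF, the adaptor within the core complex, showed the largest fall of the 44 genes. It had 24.2, 24.3 and 20.2 CPM in si-YTHDF2 and 34.03, 31.3 and 37.2 CPM in NC, clearly separate groups, with a log2 fold change of -0.58 ± 0.09 (SE) and an adjusted p of 0.000187. FANCF (ENSG00000183161) lies on the minus strand of chromosome 11 from 22622890 to 22625841. Of its exon bases 11.3% are shared with genes on the opposite strand, among them GAS2. That gene had at most 4 counts in any si-YTHDF2 library and at most 6 in any NC library. FANCG, which binds FANCA, averaged 34.2 ± 3.44 CPM in si-YTHDF2 and 40.7 ± 1.98 CPM in NC and fell by 0.25 on the log2 scale (adjusted p = 0.0210). FANCL, the ligase, averaged 20.9 ± 1.18 and 24.9 ± 1.78 CPM and fell by 0.25 (adjusted p = 0.0250; SD, n = 3 each). FANCL shares 19.7% of its exon bases with genes on the opposite strand, among them VRK2, which did not pass. The FANCG call was lost without si-YTHDF2 replicate 1 (0.0584), si-YTHDF2 replicate 3 (0.0740) or NC replicate 3 (0.0927), and the FANCL call without si-YTHDF2 replicates 2 (0.0691) or 3 (0.0867) or NC replicates 1 (0.0623) or 3 (0.115).

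Of the 3 core complex pairs compared, 2 stood in different proportion and 1 did not separate. The within-library log2 ratio of FANCA to FANCG was 0.32 ± 0.07 in si-YTHDF2 and -0.32 ± 0.21 in NC, and that of FANCL to UBE2T was -1.93 ± 0.01 in si-YTHDF2 and -1.42 ± 0.17 in NC (SD, n = 3 each), both without overlap between the groups. For FANCC to FANCE the ratio was 1.49 ± 0.06 in si-YTHDF2 and 1.42 ± 0.05 in NC (SD, n = 3 each), and the groups overlapped. FANCE, the subunit that contacts FANCD2, had a log2 fold change of 0.09 with a 95% interval from -0.11 to 0.30, and the translocase FANCM had 0.24, with an interval from 0.0030 to 0.48 and an adjusted p of 0.0846. FANCM was 0.12 without si-YTHDF2 replicate 1 (adjusted p = 0.318), and it passed without si-YTHDF2 replicate 3 (0.33, adjusted p = 0.0246), with library totals (0.31, adjusted p = 0.0427) and with the length and GC offset (0.30, adjusted p = 0.00820). In FANCM the groups overlapped, at 23.8, 19.7 and 17.6 CPM in si-YTHDF2 and 17.7, 16.5 and 17.6 CPM in NC.

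All 3 genes of the clamp step rose (background 26.1%). FANCI, a subunit of the clamp, had 173, 157 and 150 CPM in si-YTHDF2 and 126, 128 and 132 CPM in NC, a rise of 0.32 ± 0.06 (SE) on the log2 scale (adjusted p = 0.000541). FANCD2, the subunit whose ubiquitination marks the active pathway, had 72.6, 65.6 and 69.9 CPM in si-YTHDF2 and 58.5, 59.8 and 58.1 CPM in NC, a rise of 0.24 ± 0.06 (adjusted p = 0.00395). Clamp partners stayed close in proportion: the FANCD2 to FANCI log2 ratio was -1.21 ± 0.09 in si-YTHDF2 and -1.13 ± 0.05 in NC (SD, n = 3 each), and the groups overlapped. USP1, the deubiquitinase that resets the clamp, had 69.0, 58.4 and 49.9 CPM in si-YTHDF2 and 46.9, 49.7 and 46.6 CPM in NC. Its si-YTHDF2 replicate 3 lay just above the highest NC library, and the rise was 0.31 ± 0.10 (SE; adjusted p = 0.0147), or 0.19 without si-YTHDF2 replicate 1 (adjusted p = 0.0361).

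Among the crosslink and flap nucleases 1 of 6 rose and 0 fell. That gene was SLX4, which encodes the scaffold that holds the nucleases and is not a nuclease itself. It had 32.0, 42.7 and 42.5 CPM in si-YTHDF2 and 24.7, 27.2 and 25.9 CPM in NC, with a log2 fold change of 0.59 ± 0.11 (SE; adjusted p = 0.000385), and here si-YTHDF2 replicate 1 was the lowest of its group. The catalytic pairs did not pass. ERCC1 and its catalytic partner ERCC4 (XPF) had log2 fold changes of -0.14 (95% interval -0.28 to 0.0018, adjusted p = 0.0923) and -0.12 (-0.30 to 0.07, adjusted p = 0.283), and MUS81 and its partner EME1 had 0.22 (-0.03 to 0.47, adjusted p = 0.127) and 0.15 (-0.09 to 0.40, adjusted p = 0.271). ERCC1 passed as lower without si-YTHDF2 replicate 1 (-0.15, adjusted p = 0.0477), without NC replicate 1 (-0.20, adjusted p = 0.0414) and with the length and GC offset (-0.21, adjusted p = 0.0107). MUS81 passed as higher without si-YTHDF2 replicate 1 (0.33, adjusted p = 0.0175) and without NC replicate 2 (0.33, adjusted p = 0.0407). The nuclease FAN1 was low, with 75 to 128 counts per library, and its interval was wide, from -0.44 to 0.41. ERCC1, ERCC4, MUS81, EME1 and FAN1 share between 14.1% and 28.6% of their exon bases with neighbouring genes. MTMR10, which overlaps FAN1 on the opposite strand, had 133, 182 and 170 counts in si-YTHDF2 and 61, 75 and 78 counts in NC. CFL1, opposite MUS81, had 19196, 20863 and 19507 counts in si-YTHDF2 and 17070, 16516 and 17694 counts in NC. It rose by 0.21 on the log2 scale. CD3EAP, opposite ERCC1, rose by 0.67, and LRRC59, opposite EME1, rose by 0.47. The strand setting is unknown, so the values of these nuclease genes are uncertain, and the part of their neighbours' reads in them was not tested.

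End resection showed 1 rise among 4 genes. RBBP8 (CtIP), which starts resection together with the MRE11 nuclease, had 102, 83.1 and 89.3 CPM in si-YTHDF2 and 80.6, 78.8 and 73.5 CPM in NC. Its log2 fold change was 0.24 ± 0.07 (SE; adjusted p = 0.0157), and the call was lost without NC replicate 3 (0.0756); without si-YTHDF2 replicate 1 the log2 fold change was 0.16 (adjusted p = 0.0288). The MRE11 complex itself did not pass: MRE11 had a log2 fold change of -0.03 (95% interval -0.18 to 0.13) and NBN 0.05 (-0.12 to 0.21). RAD50 had only 78 to 117 counts per library and an interval from -0.48 to 0.34. Its count is uncertain, since 79.7% of its exon bases are also annotated to genes on the same strand, among them AC116366.3. That gene had at most 8 counts in any si-YTHDF2 library and at most 8 in any NC library.

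In the complex that dissolves joint molecules, the enzymes rose and the accessory subunits did not pass. BLM, the helicase, had 49.7, 42.1 and 44.2 CPM in si-YTHDF2 and 32.7, 34.7 and 33.2 CPM in NC, a log2 fold change of 0.44 ± 0.08 (SE; adjusted p = 0.000350). TOP3A, the topoisomerase, had 69.8, 75.9 and 75.9 CPM in si-YTHDF2 and 56.7, 61.5 and 57.2 CPM in NC, a rise of 0.34 ± 0.06 (adjusted p = 0.000424). RMI1 and RMI2, which stabilise the complex, had log2 fold changes of 0.01 (95% interval -0.16 to 0.18) and -0.02 (-0.15 to 0.11).

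Among the 5 checkpoint genes 0 rose and 1 fell. CHEK2, the effector that ATM activates at breaks, fell: it had 25.9, 29.2 and 27.9 CPM in si-YTHDF2 and 35.8, 36.3 and 37.9 CPM in NC, a log2 fold change of -0.41 ± 0.08 (SE; adjusted p = 0.000568). CHEK2 (ENSG00000183765) lies on the minus strand of chromosome 22 from 28687743 to 28742422. It has partial copies elsewhere in the genome, which could take some of its reads. This was not tested. CHEK1, the effector of ATR at stalled forks, had 0.05 (95% interval -0.10 to 0.20). The log2 ratio of CHEK1 to CHEK2 was 0.96 ± 0.15 in si-YTHDF2 and 0.50 ± 0.15 in NC (SD, n = 3 each), without overlap. The apical kinases ATM and ATR had -0.03 (-0.17 to 0.11) and -0.06 (-0.21 to 0.10). ATRIP, which brings ATR to single-stranded DNA, had 15.1, 13.2 and 13.4 CPM in si-YTHDF2 and 10.02, 12.1 and 12.5 CPM in NC. Each si-YTHDF2 library was higher, but the log2 fold change of 0.27 did not pass (adjusted p = 0.0718, or 0.0302 with library totals). Of its exon bases 27.9% are shared with genes on the same strand, among them TREX1.

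**Figure D4:**
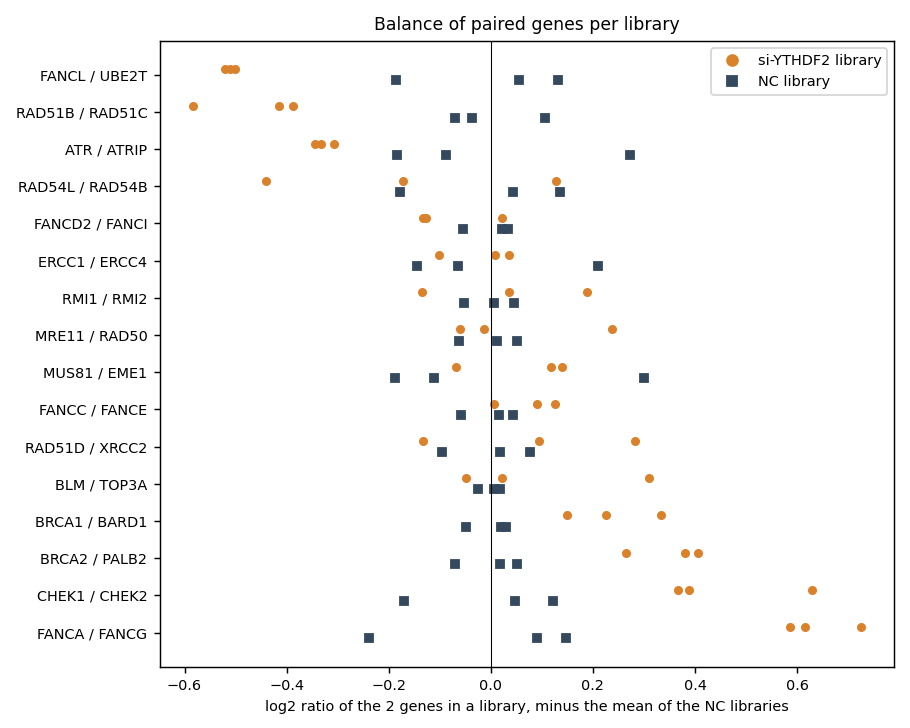
Log2 ratio of the CPM of 2 partner genes within a library, minus the mean of the NC libraries (horizontal axis), for 16 pairs of genes, most of whose products act in a shared complex, with CHEK1/CHEK2 and RAD54L/RAD54B as pairs of related function (circles si-YTHDF2, squares NC). In 7 pairs the groups do not overlap: FANCA/FANCG, CHEK1/CHEK2, BRCA2/PALB2 and BRCA1/BARD1 lie higher in si-YTHDF2, and FANCL/UBE2T, RAD51B/RAD51C and ATR/ATRIP lie lower. Of all single genes tested 58.5% do not overlap; the share over other gene pairs was not computed.

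The levels of the 44 genes spanned a wide range. Per kilobase of the principal transcript, so that genes can be compared, the median was 9.63 CPM per kb in si-YTHDF2 and 8.34 in NC. UBE2T was highest, at 87.8 ± 4.81 CPM per kb in si-YTHDF2 and 73.3 ± 3.58 in NC, followed by RMI2, at 37.3 ± 1.67 and 37.8 ± 1.36, and FANCI, at 34.01 ± 2.49 and 27.3 ± 0.63 (SD, n = 3 each). RAD50 was listed lowest, at 0.53 ± 0.10 CPM per kb in si-YTHDF2 and 0.55 ± 0.04 in NC, below FAN1, at 0.93 ± 0.21 and 0.95 ± 0.05; the place of RAD50 is uncertain because of the same-strand overlap given above. Most neighbours in the order could not be separated: of 43 neighbouring pairs, the libraries did not overlap in 9 in si-YTHDF2 and in 14 in NC. The largest moves in rank included XRCC3, which was 10th of 44 in si-YTHDF2 and 22nd in NC, and XRCC2, 20th and 32nd. In the other direction FANCF was 29th in si-YTHDF2 and 15th in NC, FANCL 16th and 9th, and RAD51B 32nd and 25th.

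**Figure D5:**
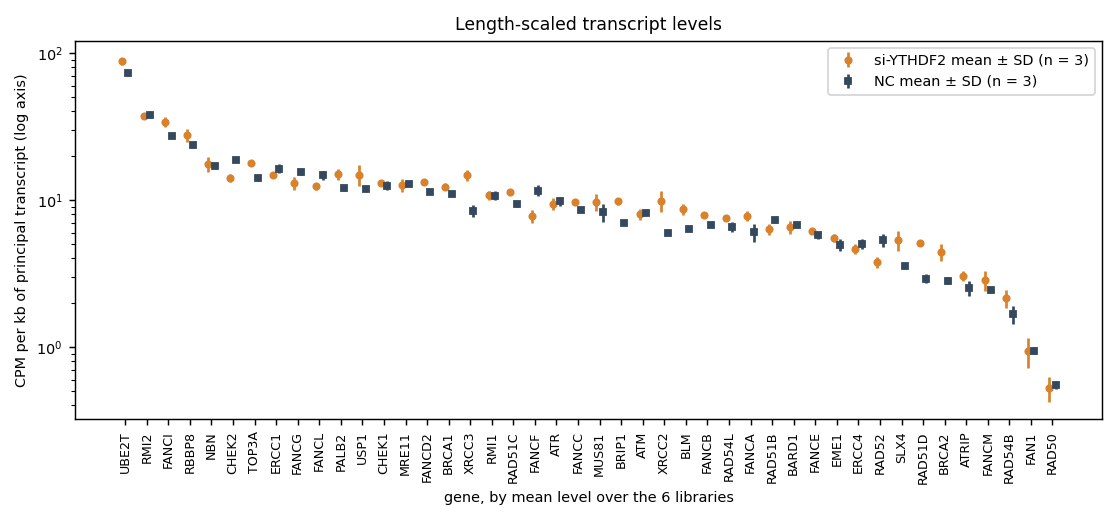
Level of each of the 44 genes in CPM per kilobase of its principal transcript (vertical axis, log scale; mean ± SD of 3 libraries), si-YTHDF2 as circles to the left and NC as squares to the right, ordered by the mean of all 6 libraries. UBE2T stands at the top in both groups, RAD50 and FAN1 at the bottom. The RAD50 count is uncertain because most of its exon bases are shared with other annotated genes on the same strand.

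By the outermost starts in GENCODE, several of these genes begin beside a gene transcribed the other way, and such pairs did not always move together. BRCA1 rose while NBR1 fell, to a mean of 127 CPM in si-YTHDF2, against 170 CPM in NC (log2 fold change -0.42, adjusted p = 4.09e-05). The outermost starts of BRCA1 and NBR1 lie 236 bases apart on opposite strands. FANCB rose while MOSPD2, 372 bases away, fell by 0.43 on the log2 scale (adjusted p = 0.000327). TOP3A and its neighbour SMCR8 both rose, SMCR8 by 0.67, and so did PALB2 and DCTN5, DCTN5 by 0.18; RAD52 and ERC1 both fell, ERC1 by 0.29. All these distances are from the outermost start in GENCODE, which may not be the main start of a gene. For RAD52 it lies well upstream of the RefSeq start whose window is printed above. Which starts were used in these cells was not tested, so BRCA1 and NBR1 in particular may not share a start region. EME1 did not pass, while MRPL27, whose start is 6 bases from its own, rose by 0.58 (adjusted p = 4.68e-06). For SLX4 with DNASE1, XRCC3 with ZFYVE21 and CHEK2 with HSCB, the repair gene changed and the neighbour did not pass, at log2 fold changes of -0.14, -0.09 and 0.06.

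Genes of the same pathways that are not among the 44 were also more often higher than lower. Of 43 other Fanconi and recombination genes tested, 16 rose (37.2%) and 4 fell (9.30%), with a median log2 fold change of 0.15. Over all genes tested, the background for each list in this paragraph, 26.1% rose and 25.2% fell. Either way 46.5% of the 43 were called, against 51.2% of all genes tested. The smallest p-values were those of EXO1, a resection nuclease (0.69 ± 0.06 SE, adjusted p = 6.95e-07), POLQ, the polymerase of alternative end joining (0.68 ± 0.08, adjusted p = 7.93e-06), and GEN1, a Holliday junction resolvase (0.61 ± 0.09, adjusted p = 6.99e-05). Of 21 genes of break signalling 8 rose and 3 fell, with a median of 0.17. Other repair pathways stood nearer to the median of all genes. In non-homologous end joining 1 of 11 rose and 2 fell (median 0.02), in mismatch repair 1 of 7 rose and 2 fell (0.01), and in nucleotide excision repair 3 of 17 rose and 3 fell (-0.02). Base excision and single-strand break repair went both ways, with 8 of 22 genes that rose and 7 that fell (0.06): the flap nuclease FEN1 rose by 0.74 ± 0.06 (SE) and the ligase LIG1 by 0.77 ± 0.07, whereas the gap-filling polymerase POLB fell by 0.68. The difference between these lists was not tested.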

How the data were processed

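Total RNA was depleted of ribosomal RNA and made into libraries with a low-input kit, per the labels' protocols. The deposited values are raw counts for each gene in each library, per the file headers. The authors used build hg38, per the submitters' processing notes. Aligner, counting program and strand setting were not given in the sources used here. Column names include Input, a word left unexplained in the labels, and 6 columns headed as normalized by edgeR were not used. All 16551 genes are protein-coding, and 2 emptied lines were left out.

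The counts were tested with edgeR 4.0.16 in R 4.3.3 (TMM factors, default filterByExpr, quasi-likelihood F test, no covariate, all 6 libraries), with Benjamini-Hochberg adjustment over 12264 genes. The SE is the size of the log2 fold change over the square root of F; 95% intervals use the t distribution with the test's degrees of freedom. Counts limit precision most for FAN1, RAD50 and RAD54B. Positions, overlaps and transcript lengths come from GENCODE 29 (GRCh38), promoters from RefSeq. Overlap shares are over all other annotated genes together, coding or not, and not over the named neighbour alone. The pipeline was tested on simulated counts. Alternatives were RLE, upper-quartile and no factors, a minimum mean count of 50, no filter on counts, the replicate number as a block, a length and GC offset (mgcv 1.9.3) without and with that block, DESeq2 1.42.0, limma-voom (limma 3.58.1) and each library left out.

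Named are all 44 genes, YTHDF2, genes that overlap or start beside them, partner pairs, and at most the 3 genes of smallest p in each further list. Further marker genes of keratinocytes and of other cell types are named as checks. The genes and lists were chosen with earlier results of these data known. Of 12 duplicated symbols, each identifier was kept.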

Additional observations from a re-analysis of the deposited data

How the results depend on the processing

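Of the 24 called genes, 18 kept their call and direction under all 16 alternatives, 6 lost the call under at least 1, and 0 changed direction. Beside the losses without single libraries given above, FANCB lost its call with no low-count filter and in DESeq2, FANCG with library totals, and FANCL with library totals and with the length and GC offset. FANCC lost it with RLE factors, no filter, the replicate block, the offset and DESeq2, at log2 fold changes between 0.09 and 0.17. Of the 20 genes not called, 6 gained a call under at least 1 alternative, in the direction given above: FANCM and ERCC1 under 4 each, RAD54L under 3, MUS81 and RAD54B under 2 each and ATRIP under 1. With library totals, falls among the 44 genes numbered 3 and their median log2 fold change was 0.25; the median of all genes was then 0.08. Leaving out 1 library at a time gave 15 to 20 rises, 3 to 5 falls and a median of 0.15 to 0.20 for the 44 genes, and 2816 to 3422 rises, 2680 to 3335 falls and 5496 to 6757 calls over all genes. Same-numbered libraries did not deviate together (correlations 0.055, 0.052 and 0.035), so the numbers were not taken as pairs; with the replicate block 18 of the 44 rose and 5 fell. Changes of sign occurred only among genes not called. With library totals the log2 fold changes became 0.0497 for FAN1, 0.0410 for MRE11, 0.0046 for BARD1, 0.0446 for RMI2, 0.0395 for ATM and 0.0106 for ATR. With the length and GC offset MRE11 became 0.0340, BARD1 0.0041 and ATM 0.0233, and with the offset and the replicate block 0.0345, 0.0035 and 0.0230. Without single libraries FAN1 ran from -0.21 to 0.10, MRE11 from -0.11 to 0.0162, RAD50 from -0.22 to 0.0528, NBN from -0.0295 to 0.13, RMI1 from -0.0462 to 0.0557, RMI2 from -0.0564 to 0.0110, ATM from -0.0977 to 0.0202 and CHEK1 from -0.0071 to 0.0976. The cause of these changes was not tested.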

Other observations

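si-YTHDF2 replicate 1 differed from the other si-YTHDF2 libraries along base composition. Across the 44 genes, its log2 level minus the mean of the other si-YTHDF2 libraries had a Spearman rho of -0.71 with GC content. Across 12249 genes rho was -0.59. GC content here is that of the longest annotated transcript of each gene. Genes of the same library are not independent replicates, and the library's depth is shared by all points. The median of that difference was 0.13 over the 44 genes and 0.00 over all genes. Median GC of the longest transcript was 42.5% in the 44 genes and 47.9% in all genes tested. SLX4, XRCC3 and FANCA, with 57.6%, 63.8% and 55.4% GC, were among the genes in which replicate 1 was the lowest si-YTHDF2 library, while BRCA2, XRCC2 and USP1, with 36.3%, 39.8% and 40.9%, were among those in which it was the highest; these examples were picked after their values were seen.

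The pentamer GGACT, a frequent context of the mark that YTHDF2 reads, occurred in the principal transcripts at a median of 0.92 per kb in the 44 genes and 0.93 per kb in all genes tested. The median was 0.92 per kb in the 19 genes that rose, 1.85 in the 5 that fell and 0.78 in the 20 not called. Over all genes tested it was 0.98 in genes that rose, 0.89 in genes that fell and 0.93 in genes not called. XRCC2, which rose, and BARD1, which did not pass, hold 0 such sites. Over the 44 genes the log2 fold change had a Pearson r of -0.11 and a Spearman rho of -0.07 with sites per kb, and of 0.28 and 0.26 with exon length, as a description with no test.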
